A study of Mus musculus with 4 samples.

Results

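The genes that build cholesterol, the SREBP system that controls them and a few genes of sterol transport and storage were followed in the sciatic nerve of control mice and of mice labelled Zeb2 cKO. The 29 members were chosen by name, with earlier results of these data known. Each of them had at least 1 row among the 22096 gene symbols of the tables. They comprise 20 enzymes of synthesis, 5 genes of SREBP control and 4 genes of transport and storage. The row named Sc4mol is given here under its current name Msmo1. The control group is labelled Control and the other Zeb2 cKO, a conditional knockout of the zinc finger transcription factor Zeb2. Both groups were on a mixed strain background, were taken at postnatal day 7 and were RNA from pooled nerves. The labels name neither the Cre line nor the deleted exons. They list 2 samples per group, and the tables hold 1 library per group, so differences below are those between 2 libraries. No test between the conditions was possible.

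Cholesterol is made from acetyl-CoA in the endoplasmic reticulum. Acetyl units are joined and reduced to mevalonate, mevalonate is turned into isopentenyl units, and these are condensed to farnesyl diphosphate. Farnesyl diphosphate either enters squalene and the sterols or is diverted to geranylgeranyl groups, dolichol and ubiquinone. When sterols are scarce, SCAP escorts the membrane-bound SREBP factors to the Golgi, where they are cut and released to switch on the enzymes. When sterols are plentiful, INSIG proteins hold SCAP back. Myelinating Schwann cells need large amounts of cholesterol for the myelin membrane and make much of it themselves.

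Levels are given in FPKM (fragments per kilobase and per unit of mapped fragments), summed over the transcripts of a gene. Depth was estimated at 29658030 reads for control nerve and 20208999 for Zeb2 cKO nerve. Folds are plain FPKM ratios with 95% counting intervals, which cover counting error only and not the spread between pools of nerves. A gene was called lower or higher when (FPKM + 1) differed 2-fold or more between the libraries, among 12903 genes with a mean of at least 1 FPKM. By that rule 806 genes were lower and 1109 higher. The median log2 ratio of all genes was 0.18. After the Zeb2 cKO library was rescaled so that the median gene was equal in both, 958 of 12795 genes were lower and 778 higher. Zeb2 itself was at 34.4 FPKM in control nerve and 19.5 FPKM in Zeb2 cKO nerve, in the direction of the labels. Its 1 row covers all exons, so undeleted exons and other cells are counted with it.

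Of the 19 measured synthesis enzymes, 16 were lower in the Zeb2 cKO library. Of 28 members that reached a mean of 1 FPKM, 17 were lower, against a background of 6.25% of all genes, and 1 was higher, against 8.59%. The lower members were these 16 enzymes and Insig1. The 19 enzymes had a median log2 ratio of -1.96, beside 0.18 for all genes. Their summed level was 1625 FPKM in control nerve and 323 FPKM in Zeb2 cKO nerve, 5.04-fold lower. Their share of the estimated reads was 0.436% in control nerve (Clopper-Pearson interval 0.433% to 0.438%) and 0.0897% in the other (0.0884% to 0.0910%). The 3 measured enzymes that were not lower were Ggps1, Lbr and Ebp.

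**Figure D1:**
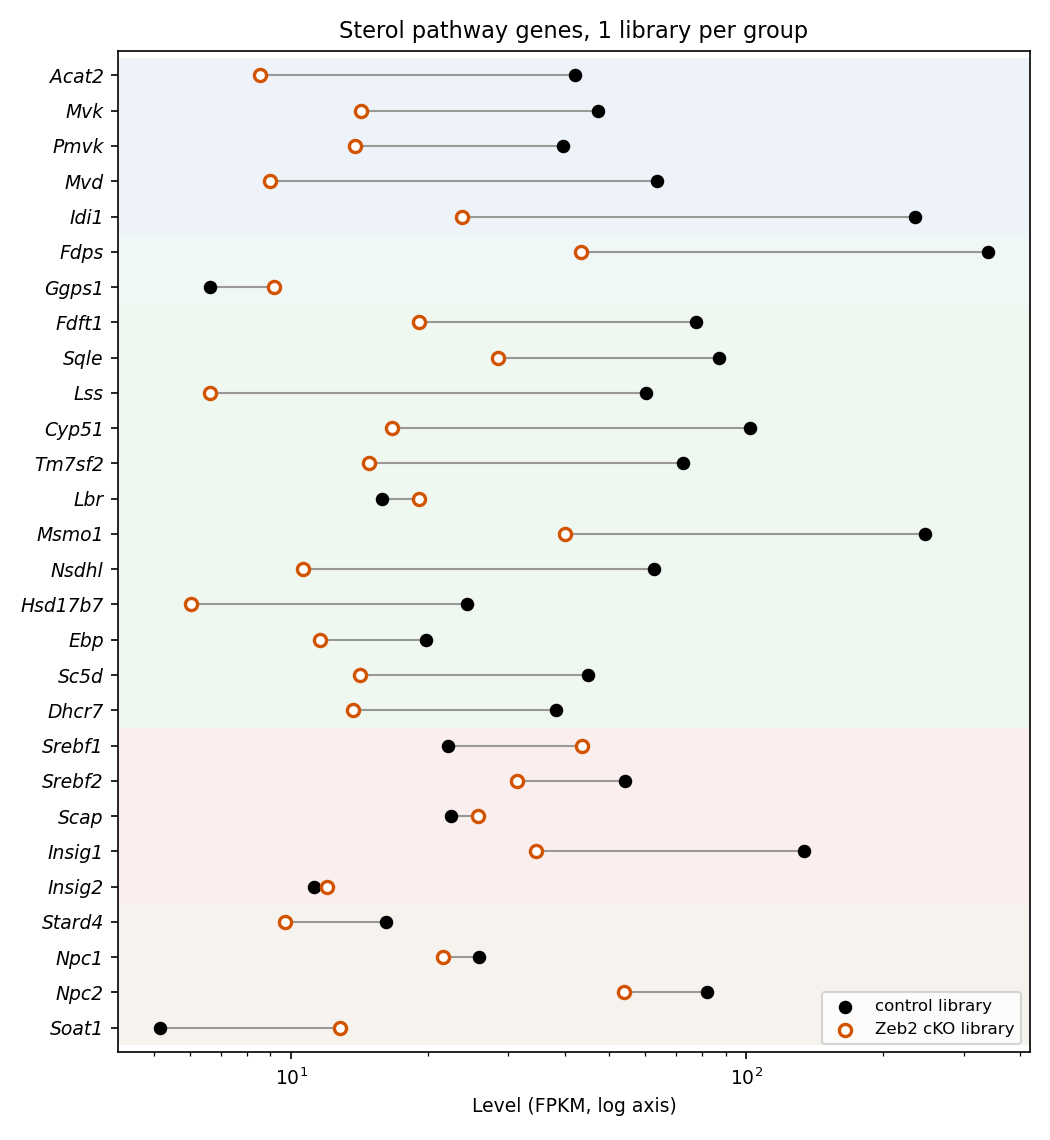
Level of each of the 28 measured members in the control library (filled) and the Zeb2 cKO library (open), in FPKM on a log axis, with 1 library per group and shading by role from mevalonate enzymes at the top to transport and storage at the bottom. Open points lie to the left of filled points for 17 of the 19 enzymes, and to the right for Ggps1, Lbr, Srebf1, Scap, Insig2 and Soat1.

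All 5 measured enzymes of the mevalonate stage were lower. Acat2, the cytosolic thiolase that joins acetyl units (chromosome 17, 13135908 to 13153591, mm9), measured 42.1 FPKM in control nerve and 8.55 FPKM in Zeb2 cKO nerve, 4.92-fold lower (4.45 to 5.46). Its neighbour and paralog Acat3 was nearly level, at 10.2 and 9.68 FPKM. Reads shared by near-identical paralogs could be split between them, so the Acat2 value carries that uncertainty. Mvk, mevalonate kinase, which adds the phosphate that commits mevalonate, was at 47.3 and 14.2 FPKM, 3.33-fold lower (3.04 to 3.65). Pmvk, the kinase that follows it, was at 39.5 and 13.8 FPKM, 2.87-fold lower (2.57 to 3.21). The pair of kinases thus had similar levels in each library and similar folds.

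The steps after the kinases had larger folds. Mvd, the decarboxylase that forms isopentenyl diphosphate (chromosome 8, 124957496 to 124967322), measured 63.6 FPKM in control nerve and 8.97 FPKM in Zeb2 cKO nerve, 7.09-fold lower (6.39 to 7.90). Idi1, the isomerase that balances the isopentenyl isomers (chromosome 13, 8884852 to 8891642), measured 235 and 23.8 FPKM, 9.88-fold lower (9.40 to 10.4). It had the largest fold of the 28 measured members, and 117 of the 12903 genes had a ratio as low. Its paralog Idi2 rested on about 1 read in each library.

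Hmgcs1, the cytosolic synthase that makes HMG-CoA, could not be assessed. The tables carry it as 2 rows of 3283 bases on unplaced sequence of chromosome 13, and both rows are listed at 0 in both libraries. No fold is given for it, and it is left out of the counts of measured members.

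At the branch point the enzymes parted. Fdps, which condenses isopentenyl units to farnesyl diphosphate (chromosome 3, 88897510 to 88905867), was the most abundant enzyme in both libraries, at 340.0 FPKM in control nerve and 43.3 FPKM in Zeb2 cKO nerve, 7.86-fold lower (7.42 to 8.32). Ggps1, which extends farnesyl to geranylgeranyl diphosphate for protein prenylation, was at 6.65 and 9.17 FPKM, 1.38 times the control level (1.22 to 1.56). Fdps therefore stood 51.1 times above Ggps1 in the control library and 4.72 times above it in the Zeb2 cKO library. These are ratios within a library and do not depend on how the libraries were scaled to each other.

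From squalene onward, 10 of 12 enzymes were lower. Fdft1, squalene synthase, which commits farnesyl diphosphate to sterols, was at 77.5 FPKM in control nerve and 19.1 FPKM in Zeb2 cKO nerve, 4.05-fold lower (3.82 to 4.30). Its locus shares 771 bases with Ctsb, which was at 97.3 and 147 FPKM, so reads in the shared stretch cannot be assigned to either gene without strand. Sqle, squalene epoxidase and a rate-limiting step, was at 87.0 and 28.5 FPKM, 3.05-fold lower (2.90 to 3.21). Lss, which folds the epoxide into lanosterol (chromosome 10, 75994372 to 76016679), measured 60.1 and 6.62 FPKM, 9.07-fold lower (8.28 to 9.96). Its fold was the largest of the sterol stage, and the counting intervals of Lss and Sqle lay far apart. Lss had ranked 10 of the 19 enzymes by level in the control library and ranked 18 in the Zeb2 cKO library.

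The demethylating enzymes that trim lanosterol were 4.03-fold to 6.17-fold lower. Cyp51, the lanosterol demethylase, was at 102 FPKM in control nerve and 16.6 FPKM in Zeb2 cKO nerve, 6.11-fold lower (5.82 to 6.42). Msmo1, the methylsterol monooxygenase (chromosome 8, 67196942 to 67212375), measured 246 and 39.9 FPKM, 6.17-fold lower (5.88 to 6.49), and was the second most abundant enzyme in both libraries. Its partner Nsdhl, the dehydrogenase that removes the oxidised methyl group, was at 62.6 and 10.6 FPKM, 5.89-fold lower (5.40 to 6.43). These 3 enzymes had overlapping counting intervals. Hsd17b7, the ketoreductase of the same complex, was at 24.3 and 6.04 FPKM, 4.03-fold lower (3.71 to 4.38), and was the lowest enzyme by level in the Zeb2 cKO library.

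The pair of sterol reductases that act on the same double bond differed. Tm7sf2, the reductase of the endoplasmic reticulum (chromosome 19, 6062821 to 6067850), measured 72.5 FPKM in control nerve and 14.8 FPKM in Zeb2 cKO nerve, 4.88-fold lower (4.46 to 5.36). Lbr, the lamin B receptor, a reductase that also anchors chromatin at the inner nuclear membrane, was at 15.8 and 19.1 FPKM, 1.21 times the control level (1.13 to 1.29). Tm7sf2 was 4.59 times as high as Lbr in the control library and 0.776 times as high in the Zeb2 cKO library, so the order of the pair was reversed. After rescaling to the median gene the log2 ratio of Lbr was 0.06.

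The last steps had folds of 1.71 to 3.16. Ebp, the isomerase that moves the ring double bond, was at 19.8 FPKM in control nerve and 11.6 FPKM in Zeb2 cKO nerve, 1.71-fold lower by plain ratio (1.54 to 1.90) and short of 2-fold. Sc5d, the sterol desaturase, was at 44.9 and 14.2 FPKM, 3.16-fold lower (2.93 to 3.42). Dhcr7, the reductase that turns dehydrocholesterol into cholesterol (chromosome 7, 151009072 to 151034315), measured 38.2 and 13.7 FPKM, 2.79-fold lower (2.59 to 2.996). Dhcr7 had the smallest fold of the 16 lower enzymes, and 4.24% of all genes had a ratio as low as its own.

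**Figure D2:**
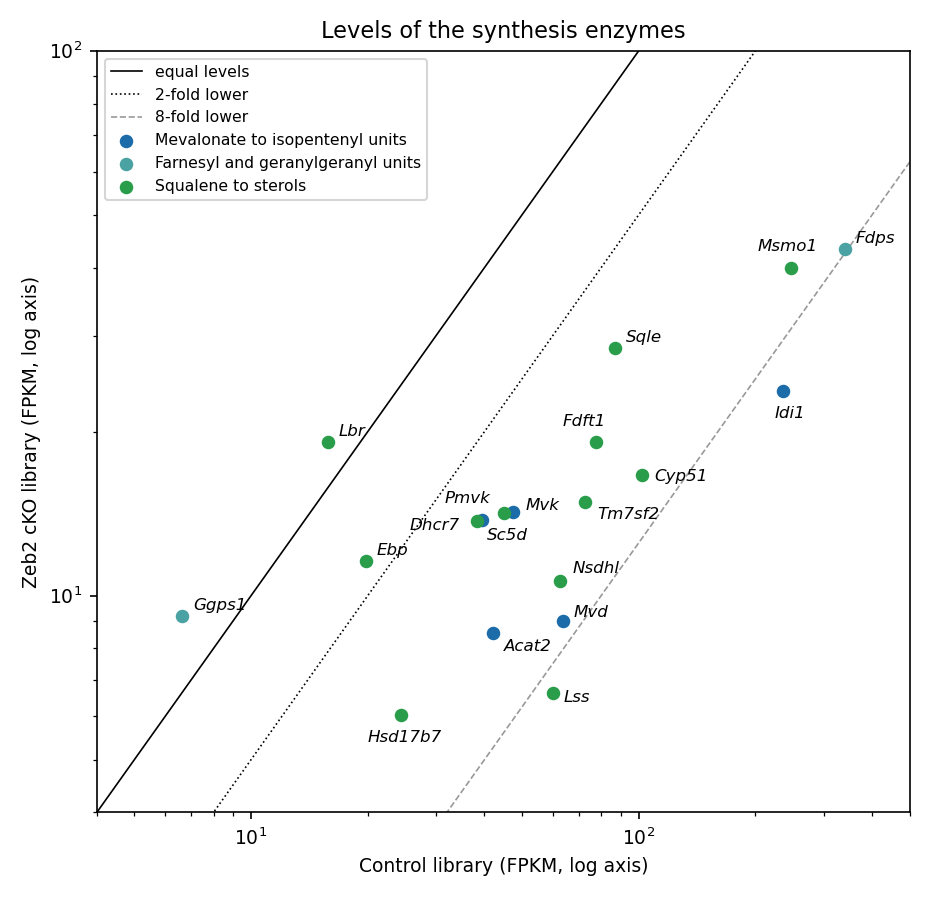
Level of the 19 measured enzymes in the Zeb2 cKO library against the control library, both in FPKM on log axes, coloured by stage, with lines for equal, 2-fold lower and 8-fold lower levels. In all, 16 enzymes lie below the 2-fold line, Idi1 and Lss lie below the 8-fold line, and Ggps1 and Lbr lie above the line of equal levels.

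The enzymes were closer together in level in the Zeb2 cKO library. They ran from 6.65 to 340.0 FPKM in the control, a 51.1-fold span. In the Zeb2 cKO library they ran from 6.04 to 43.3 FPKM, a 7.17-fold span. The control span was that of Fdps over Ggps1, and Ggps1 was not lower. The 16 lower enzymes alone had a span of 13.97-fold in the control and 7.17-fold in the Zeb2 cKO library. The order of all measured enzymes was partly kept, with a Spearman rho of 0.63 over 19 genes. That rho is given as a description, since genes of 1 library share its depth. Fdps and Msmo1 were the top pair in both libraries. Lbr stood at rank 18 in the control library and at rank 5 in the Zeb2 cKO library.

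Because the enzymes moved together, their promoters are shown for a pair of strongly lower genes and for 1 gene that was not lower. The sequences are the 250 bases before the start in RefSeq on GRCm38.p6, on the strand of the gene, with capitals marking the letters CCAAT on either strand (the box bound by NF-Y, a known partner of SREBP). Lss is at chr10:76531355-76531604 on the plus strand, Mvd at chr8:122443423-122443672 on the minus strand, and Ggps1 at chr13:14063489-14063738 on the minus strand.
Lss: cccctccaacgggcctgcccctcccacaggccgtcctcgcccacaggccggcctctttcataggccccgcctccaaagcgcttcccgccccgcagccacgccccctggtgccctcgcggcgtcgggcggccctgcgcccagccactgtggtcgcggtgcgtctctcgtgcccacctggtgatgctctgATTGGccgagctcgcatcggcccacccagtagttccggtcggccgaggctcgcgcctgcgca
Mvd: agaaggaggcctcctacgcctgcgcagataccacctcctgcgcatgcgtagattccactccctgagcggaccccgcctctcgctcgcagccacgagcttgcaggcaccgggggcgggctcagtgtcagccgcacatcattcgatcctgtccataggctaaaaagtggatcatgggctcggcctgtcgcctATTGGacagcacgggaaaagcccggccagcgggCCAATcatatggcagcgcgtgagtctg
Ggps1: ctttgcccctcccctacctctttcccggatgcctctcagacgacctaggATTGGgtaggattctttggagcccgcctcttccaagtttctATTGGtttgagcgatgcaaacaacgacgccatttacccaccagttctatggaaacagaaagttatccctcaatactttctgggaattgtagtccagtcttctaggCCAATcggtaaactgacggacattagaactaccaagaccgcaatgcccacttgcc
The Lss window holds 1 match, on the antisense strand 62 to 58 bases before the start. Mvd has 2 matches and Ggps1 has 3, of which the nearest to the start is at 55 to 51 bases. Ggps1, which was not lower, held the most matches of the windows shown. These windows were picked as examples, and numbers of matches were not compared over all members.

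Over windows of 300 bases (250 before to 50 after the start), CCAAT was present for 22 of the 24 members with a RefSeq window, beside 37.4% of all 32851 windows and 42.8% of measured genes. It did not separate the members, since 12 of 13 lower enzymes and 8 of 9 members that were not lower held it. GGGCGG, the Sp1 box, was in 22 of 24 members and in 69.7% of measured genes (35.7% of all windows). CACGTG, an E-box, was in 5 of 24 members and in 11.8% of measured genes (7.15% of all windows). CACCTG, an E-box of the kind ZEB factors bind, was in 6 of 24 members and in 20.1% of measured genes (20.2% of all windows). In the 250 bases before the start alone it was in 3 of 24 members and 17.8% of measured genes. The sterol regulatory element written as TCACNCCAC was in 1.42% of measured genes (1.24% of all windows). Among members it was in Hmgcs1 alone, shown here with the element in capitals.
Hmgcs1: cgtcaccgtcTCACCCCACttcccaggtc
That stretch is at chr13:119690204-119690232 on the plus strand of GRCm38.p6. A stricter spelling, with C in place of N and an A in front, overlaps TCACNCCAC. It was in 0 of 24 members and 0.0772% of measured genes (0.0913% of all windows). TCACNTGA, which can overlap CACGTG, was in 1 of 24 members, Insig2, and in 4.87% of measured genes (4.18% of all windows). All motifs were searched on both strands, a gene with several starts was counted if any window matched, and a missing match says only that these letters are not in the window. Fdps, Fdft1, Sqle, Stard4 and Npc1 had no entry in the table.

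The 5 genes of SREBP control did not move as a group. Their median log2 ratio was 0.08, beside 0.18 for all genes. Of the 5, 1 was lower (20%, beside 6.25% of all genes) and 0 were higher. Insig1, the retention factor that is itself a classic SREBP target (chromosome 5, 28397952 to 28405202), measured 134 FPKM in control nerve and 34.4 FPKM in Zeb2 cKO nerve, 3.89-fold lower (3.72 to 4.07). Insig2, which serves the same retention but is not driven by SREBP in the same way, was at 11.2 and 11.98 FPKM, 1.07 times the control level, and the counting interval of 0.966 to 1.18 held equal levels. Insig1 exceeded Insig2 11.9 times in the control library and 2.87 times in the Zeb2 cKO library.

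The genes of the SREBP factors went in opposite directions, each short of 2-fold. Srebf2, the factor that chiefly drives cholesterol synthesis (chromosome 15, 81977699 to 82035390), measured 54.1 FPKM in control nerve and 31.3 FPKM in Zeb2 cKO nerve, 1.73-fold lower by plain ratio (1.66 to 1.80). Srebf1, whose forms chiefly drive fatty acid synthesis (chromosome 11, 60012591 to 60034106), measured 22.1 and 43.6 FPKM, 1.98 times the control level (1.89 to 2.07). Its log2 ratio on the scale of the call was 0.95, and 0.75 after rescaling to the median gene. Srebf2 was 2.45 times as high as Srebf1 in the control library and 0.719 times as high in the Zeb2 cKO library, a reversal of their order that holds within each library. The tables carry 1 transcript for Srebf1, so its forms are not told apart. Scap, the escort protein, was at 22.4 and 25.8 FPKM, 1.15 times the control level (1.09 to 1.21). The small differences of Scap and Insig2 changed sign after rescaling, to log2 ratios of -0.01 and -0.11.

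**Figure D3:**
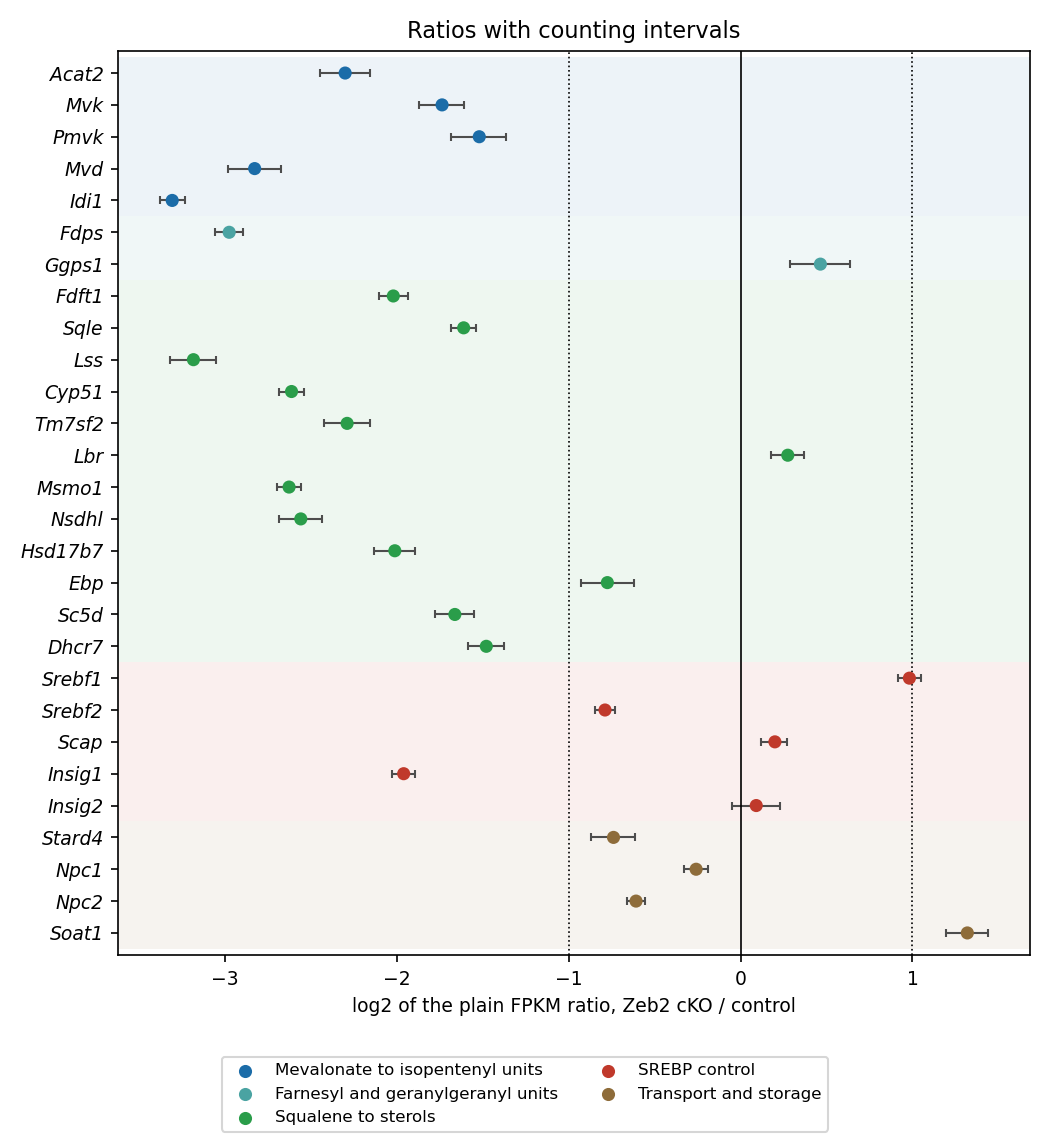
Plain FPKM ratio of the Zeb2 cKO to the control library on a log2 axis for the 28 measured members, with bars for 95% counting intervals and dotted lines at 2-fold. In all, 17 members lie left of the 2-fold line, Srebf1 lies at it, with a ratio of 1.98, and Soat1 lies to its right.

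Of the 4 transport and storage genes, 3 were below the control level by less than 2-fold and Soat1 was above it. Stard4, a carrier of sterol between membranes and an SREBP target, was at 16.1 FPKM in control nerve and 9.68 FPKM in Zeb2 cKO nerve, 1.67-fold lower by plain ratio (1.53 to 1.82). Npc2, the soluble lysosomal protein that binds cholesterol released from lipoproteins, was at 81.9 and 53.8 FPKM, 1.52-fold lower (1.47 to 1.58). Npc1, the membrane protein that takes cholesterol over from NPC2 for export, was at 25.8 and 21.6 FPKM, 1.196-fold lower (1.14 to 1.25). Between 8.60% (Stard4) and 18.004% (Npc1) of all genes had a ratio as low as theirs. Soat1, which esterifies cholesterol for storage in lipid droplets (chromosome 1, 158358239 to 158404459), measured 5.14 and 12.8 FPKM, 2.49-fold higher (2.29 to 2.71). It was the 1 member called higher, and its log2 ratio of 1.17 became 0.98 after rescaling to the median gene, just under the call.

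Other genes of the pathway, taken from 6 lists of 85 entries, were mostly within 2-fold. A list of 6 further genes covered sterol synthesis and its accessory proteins. Of these, 2 were lower (33.3%, beside 6.25% of all genes) and 0 higher, and the median log2 ratio was -0.80. Among them Tmem97, a sterol-responsive membrane protein, was at 31.8 FPKM in control nerve and 17.3 FPKM in Zeb2 cKO nerve, short of the call, and it passed the call after rescaling to the median gene, with a log2 ratio of -1.04. Another list held 16 enzymes that use isoprenoids for other purposes, such as protein prenylation, dolichol and ubiquinone. Of these, 2 were lower (12.5%, beside 6.25% of all genes) and 0 higher, with a median of 0.02. The lower genes were the subunits of protein farnesyltransferase, Fnta at 141 and 67.4 FPKM (2.10-fold) and Fntb at 29.9 and 13.8 FPKM (2.16-fold). With a pseudocount of 5 in place of 1, Fntb had a log2 ratio of -0.89 and was no longer called. Rabggta, a subunit of the Rab prenyltransferase, was at 11.4 and 6.90 FPKM. The remaining 14 of these 16 enzymes lay within 2-fold.

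The machinery that cuts SREBP and turns over INSIG did not reach 2-fold in any of 16 genes. Its median log2 ratio was 0.11, and the largest ratios were those of Fbxw7, an adaptor of a ubiquitin ligase that degrades cut SREBP (4.02 and 7.96 FPKM), Rnf145, a sterol-regulated ubiquitin ligase (46.9 and 30.3 FPKM), and Mbtps1, the first SREBP protease (38.2 and 49.5 FPKM). Of 17 measured genes of sterol uptake and traffic, 1 was lower and 1 higher, with a median of 0.09. Each is 5.88% of the list, beside 6.25% of all genes lower and 8.59% higher. Vldlr, a lipoprotein receptor, was the higher gene, at 6.18 and 21.5 FPKM, 3.49-fold, and Lrp1, a receptor of the same family, was at 17.9 and 36.1 FPKM, with a log2 ratio of 0.97. Among 12 measured genes of LXR, efflux and oxysterol metabolism, with a median of 0.09, 2 hydroxylases were lower (16.7%, beside 6.25% of all genes). Cyp7b1 was at 22.4 and 7.04 FPKM (3.18-fold) and Cyp39a1 at 34.2 and 13.7 FPKM (2.49-fold). Nr1h3, the LXR alpha receptor, was the 1 higher gene (8.33%, beside 8.59% of all genes), at 1.52 and 4.49 FPKM. It was under the call after rescaling, with a log2 ratio of 0.96.

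Genes of fatty acid synthesis, many of them targets of SREBP-1, had a median log2 ratio of -0.90, below that of each of the 5 lists above and above that of the 19 sterol synthesis enzymes. Of 15, 7 were lower (46.7%, beside 6.25% of all genes) and 2 higher (13.3%, beside 8.59%). Elovl6, an elongase, was at 87.1 FPKM in control nerve and 7.58 FPKM in Zeb2 cKO nerve, 11.5-fold lower. Acss2, which makes acetyl-CoA from acetate, was at 23.7 and 4.98 FPKM, 4.77-fold lower. Me1, the cytosolic malic enzyme that supplies NADPH, was at 19.1 and 67.4 FPKM, 3.53-fold higher.

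**Figure D4:**
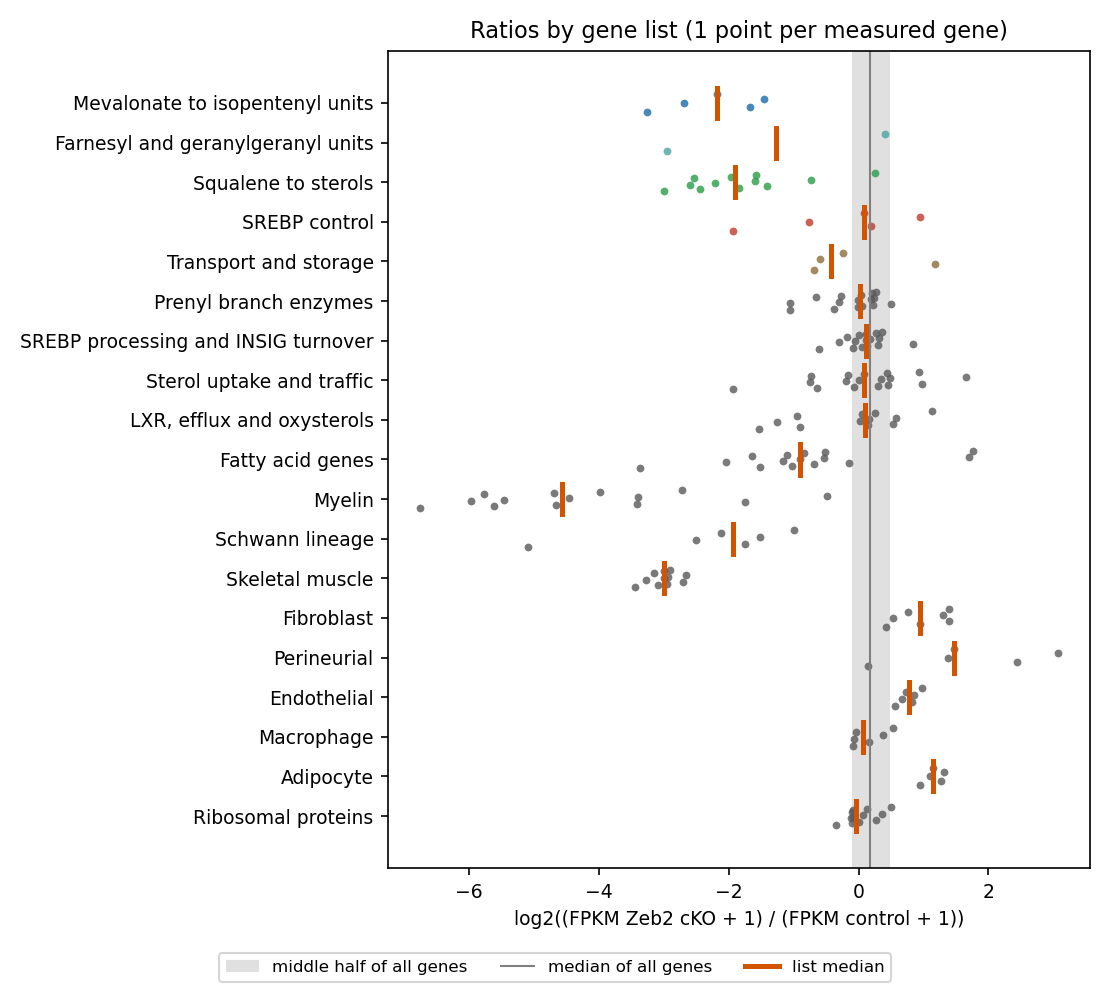
Log2 ratio on the scale of the call for each measured gene of the member groups and of other lists, 1 point per gene, with an orange bar at each list's median, a grey line at the median of all genes (0.18) and grey shading over the middle 50% of all genes. The mevalonate and sterol groups lie at medians of -2.17 and -1.91, between the myelin list at -4.56 and the lists near the grey line.

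Markers of myelin, the Schwann lineage and skeletal muscle were lower along with the enzymes, while those of fibroblasts, perineurial cells, endothelium and adipocytes had median log2 ratios of 0.95, 1.47, 0.77 and 1.15. In bulk nerve, fewer cells of a type and less RNA per cell cannot be told apart. Over all genes, 6.25% were lower and 8.59% higher, the background for the counts that follow. Of 14 measured myelin genes 13 were lower, with a median log2 ratio of -4.56, led by Pmp2 and Mag (-6.75 and -5.97), and none of the 19 enzymes was as low as that median. Of 6 Schwann lineage genes 5 were lower, with a median of -1.93. Sox10, a transcription factor present throughout the lineage, measured 139 FPKM in control nerve and 69.2 FPKM in Zeb2 cKO nerve, a log2 ratio of -0.996, and 16 of 19 enzymes had a lower ratio. All 11 skeletal muscle markers were lower, with summed levels of 6512 and 771 FPKM. Fibroblast markers had 3 of 7 higher, with summed levels of 5801 and 9731 FPKM, and perineurial markers 4 of 5 higher, with 75.3 and 253 FPKM. Adipocyte markers had 4 of 5 higher, with 216 and 526 FPKM, endothelial markers 0 of 6, with 103 and 178 FPKM, and macrophage markers 0 of 6, with 46.6 and 48.8 FPKM. The 12 ribosomal protein genes had a median of -0.04. The part of these cell types in the values of the sterol genes was not tested.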

How the data were processed

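Nerve RNA was extracted with Trizol and made into TruSeq libraries, per the labels' protocols. Reads were processed on mm9, and CASAVA, TopHat, Cufflinks and Cuffdiff are named without versions, per the submitters' processing notes. Per the file headers, the authors deposited for each RefSeq transcript its FPKM, coverage and status. The deposited coverage signal is the mean number of reads over each base, with no scaling to library size. FPKM keeps no whole counts, so no count model was used. Each table is listed under both samples of its group, so it was assigned to the group.

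Of 28107 transcript rows, 295 whose status was not OK in both tables were removed, and FPKM was summed per symbol. Log2 ratios used a pseudocount of 1, which understates changes of low genes. Coverage times length divided by 52.5 bases, the contribution of 1 read, gave estimated reads. That contribution is the median of 473 values kept within a preset window, which bounds their 10th to 90th percentile (46.5 to 59.7) in advance. Clopper-Pearson intervals (95%) on the estimated reads are approximate. The fewest estimated reads of a measured member were 561 in the control and 384 in the Zeb2 cKO library. No read strand was used.

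Members and lists were chosen with earlier results of these data known. Named genes are all members, Zeb2 and the 3 largest absolute ratios of each other pathway list. Some genes that this rule names are not reported here. Of marker lists the 2 largest were to be named, and most are given as counts. Acat3, Idi2, Ctsb and Sox10 were named after their values were seen. Positions are mm9, counted from 1, and promoter windows are GRCm38.p6. Code was tested on simulated data. Python 3.11.15, pandas 2.3.3, numpy 2.4.6, scipy 1.17.1 and matplotlib 3.10.9 were used.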

Additional observations from a re-analysis of the deposited data

How the results depend on the processing

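No paired analysis was possible because each group had a single library in the tables, which also means that none could be omitted. The same 17 members were lower under every pseudocount, filter, scaling, status and transcript choice tried. At 3-fold 14 of them were counted, without Dhcr7, Pmvk and Sqle, and at 1.5-fold 21 members were. Soat1 was not called higher with a pseudocount of 5, after rescaling to the median gene or at 3-fold (0 members each), and at 1.5-fold 2 members were higher. The enzyme median was -1.77 with a pseudocount of 5, -2.16 after rescaling to the median gene and -2.06 after rescaling to the total without myelin and muscle lists. The median of the 9 control, transport and storage genes was -0.25, and -0.45 and -0.34 under those scalings. Over all genes, 529 were lower and 477 higher with a pseudocount of 5. At a mean of at least 5 FPKM, 739 of 9105 genes were higher (8.12%, beside 8.59% in the main setting). At 1.5-fold 1266 were lower and 2537 higher, and at 3-fold 457 were lower and 401 higher. In the 250 bases before the start, CACCTG was in 3 of 24 members in place of 6 and GGGCGG in 21 in place of 22, and the counts of the other motifs among members did not change. At this depth the difference of Insig2 was within counting error, and the widest counting interval of a measured member spanned 1.27-fold.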

Other observations

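Of the members, 24 had 1 transcript row in the tables and 5 had 2, and the rows of a gene need not move together. Scap, the SREBP escort, had 1 row of 4286 bases at 5.89 FPKM in control nerve and 4.53 FPKM in Zeb2 cKO nerve, and 1 of 4130 bases at 16.5 and 21.2 FPKM, so its shorter row was higher and its longer row lower in the Zeb2 cKO library. Both rows of Pmvk, the kinase of phosphomevalonate, were lower, at 34.6 and 11.6 FPKM for the main row and 4.86 and 2.20 FPKM for the other. The coding row of Mvd carried nearly all of its level, and its noncoding row was at 0.553 FPKM in the control and under 1 read in the Zeb2 cKO library. The split between rows of 1 gene is an estimate by Cufflinks, and these differences have no replicate.

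Few bases of the members are shared with other loci. Besides the stretch of Ctsb at Fdft1, 276 bases of Npc1, 107 bases of Srebf1, 69 bases of Srebf2 (with Mir33, listed at 0 in both libraries) and 9 bases of Tm7sf2 are shared with other loci. Rai1, which overlaps Srebf1, was far below it in level, with 1 row at 1.34 and 2.04 FPKM.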
